A study of Pan troglodytes with 6 samples.

Results

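The genes described here encode the enzymes of glycolysis, gluconeogenesis and glycogen metabolism, with the enzymes that admit pyruvate to the mitochondrion, in cerebellum and liver of chimpanzees (Pan troglodytes). Of 49 listed genes, 45 had a feature (a transcript cluster, the array's unit of about 1 gene) whose platform annotation names that gene and no other, out of 15143 features and 12584 genes named in that way. PGK1, PGAM1, PDK2 and KHK had no such feature and are not analysed here, and none of the 45 symbols had more than 1. Features that name several genes, some of which include PFKM, ALDOA, ENO1, PDHA1 or PDK2, were not used. RNA of 3 cerebellum and 3 liver samples was hybridised to Affymetrix Human Exon 1.0 ST arrays, whose probes were designed on human sequence. The replicate labels give a female of 27 years, a male of 37 years and a male of 30 years, in that order and for both tissues, and name no treatment and no genetic change. The labels do not say whether same-numbered samples come from the same animal.

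Glycolysis splits glucose into pyruvate, gluconeogenesis runs the route backward with its own enzymes at the irreversible steps, and glycogen is the branched store of glucose that both tissues hold. Most steps are catalysed by isoenzymes, products of different genes that do the same chemistry with different kinetics and control. The liver takes up, stores and releases glucose for other organs, whereas brain tissue burns glucose supplied by the blood.

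The deposited values are intensities with an identical distribution on every array, so a change in total signal between the tissues cannot be seen. Tests were run on log2(intensity + 16.8), where 16.8 is the 10th percentile of all values, which understates the change of dim genes. A gene was called where limma's adjusted p over all features was under 0.05, and every difference is cerebellum minus liver. Sets of values are in the order of replicates 1, 2 and 3, and means are of intensities ± SD with n = 3 per tissue. The markers of both tissues went with the labels. All 7 measured neuron markers were higher in cerebellum, where their intensities summed to 14184 to 14848, against 187 to 222 on the liver arrays, and all 6 hepatocyte markers were higher in liver, at 18287 to 23346 against 83.2 to 156. In whole tissue, fewer cells of a type and less RNA per cell cannot be told apart.

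Cerebellum had more of the transcripts of ENO2, LDHB, ALDOC, PFKP, PFKM and PKM, which act in the glycolytic chain from phosphofructokinase to lactate. Liver had more of those of G6PC1, PCK1 and FBP1, which make and release glucose, and of the liver glycogen enzymes GYS2 and PYGL. Of the 45 genes, 13 were called toward cerebellum and 18 toward liver (limma), together 68.9%. Over all features 26.7% were higher in cerebellum and 23.9% in liver, together 50.6%. With a difference of at least 2-fold as well, the genes numbered 10 and 16, against 17.2% and 15.8% of all features. With arrays aligned on ribosomal protein, proteasome and respiratory complex I genes in place of the deposited scaling, all differences moved by 0.44 on the log2 scale, the counts were 16 and 16, and 74.0% in place of 52.8% of the called features were higher in cerebellum. The 3 arrays of each tissue did not overlap for 35 of the 45 genes (77.8%), against 59.4% of all features. The median size of the log2 difference, without its sign, was 1.64 over the 45 genes and 0.62 over all features. The branches of metabolism were not divided alike. Of 24 glycolytic genes, 10 were higher in cerebellum, 6 in liver and 8 were not called. None of the 7 gluconeogenic genes was called toward cerebellum and 5 were higher in liver, and of 9 glycogen genes 2 and 5 were. At pyruvate entry 1 of 5 genes was higher in cerebellum and 2 in liver, together 60%, against 50.6% of all features.

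**Figure D1:**
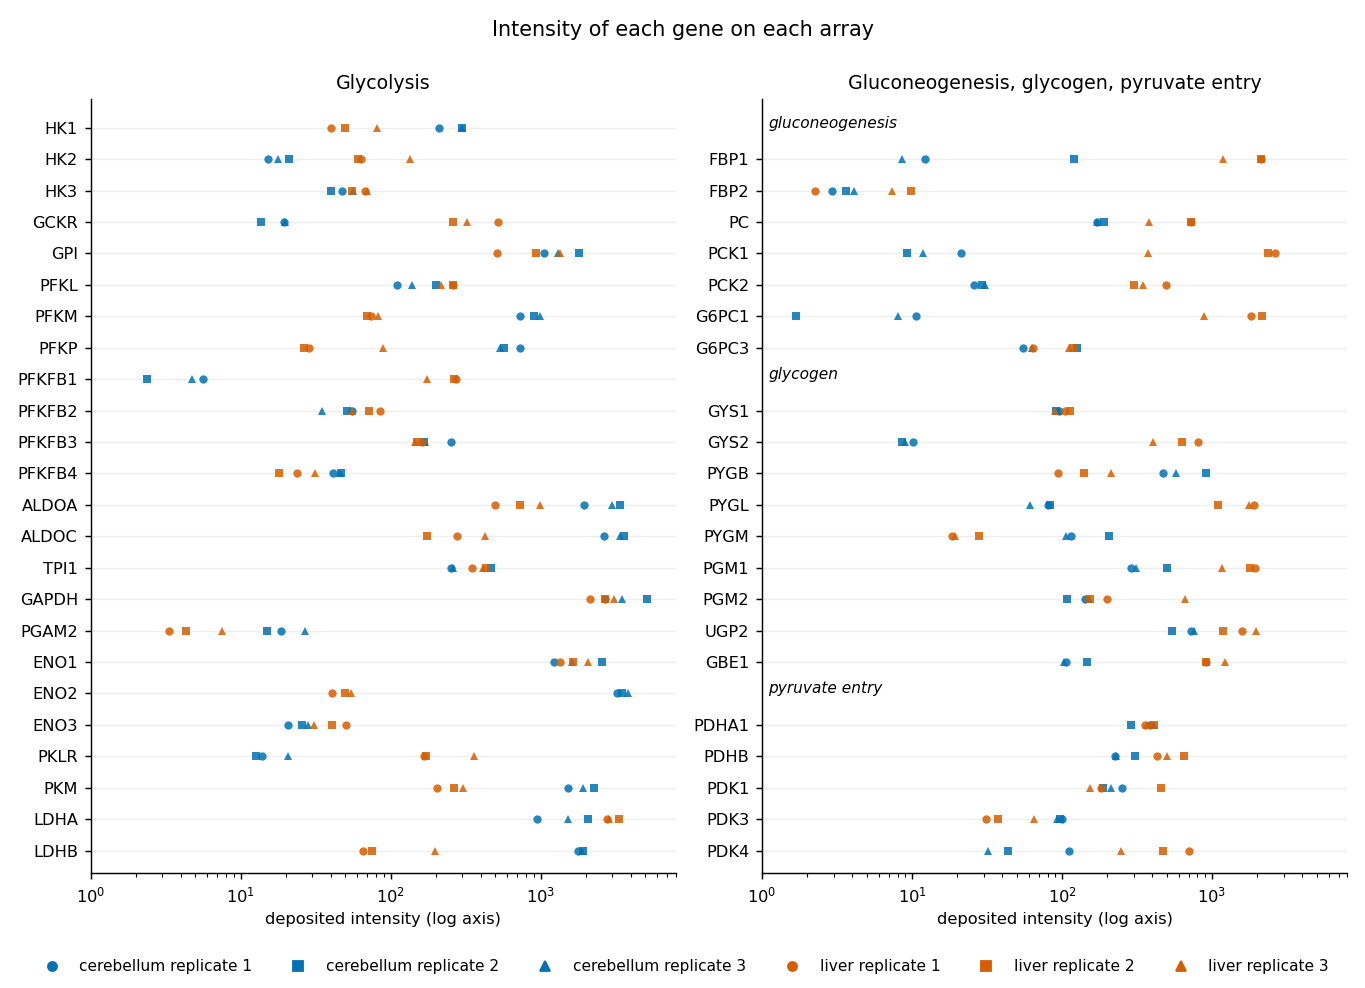
Deposited intensity (log axis) of each of the 45 genes on the 6 arrays, with cerebellum in blue, liver in orange and the marker shape giving the replicate. ENO2 has means of 3513 in cerebellum and 48.2 in liver, G6PC1 of 6.76 and 1620.3, and the points of GYS1 and ENO1 are mixed.

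**Figure D2:**
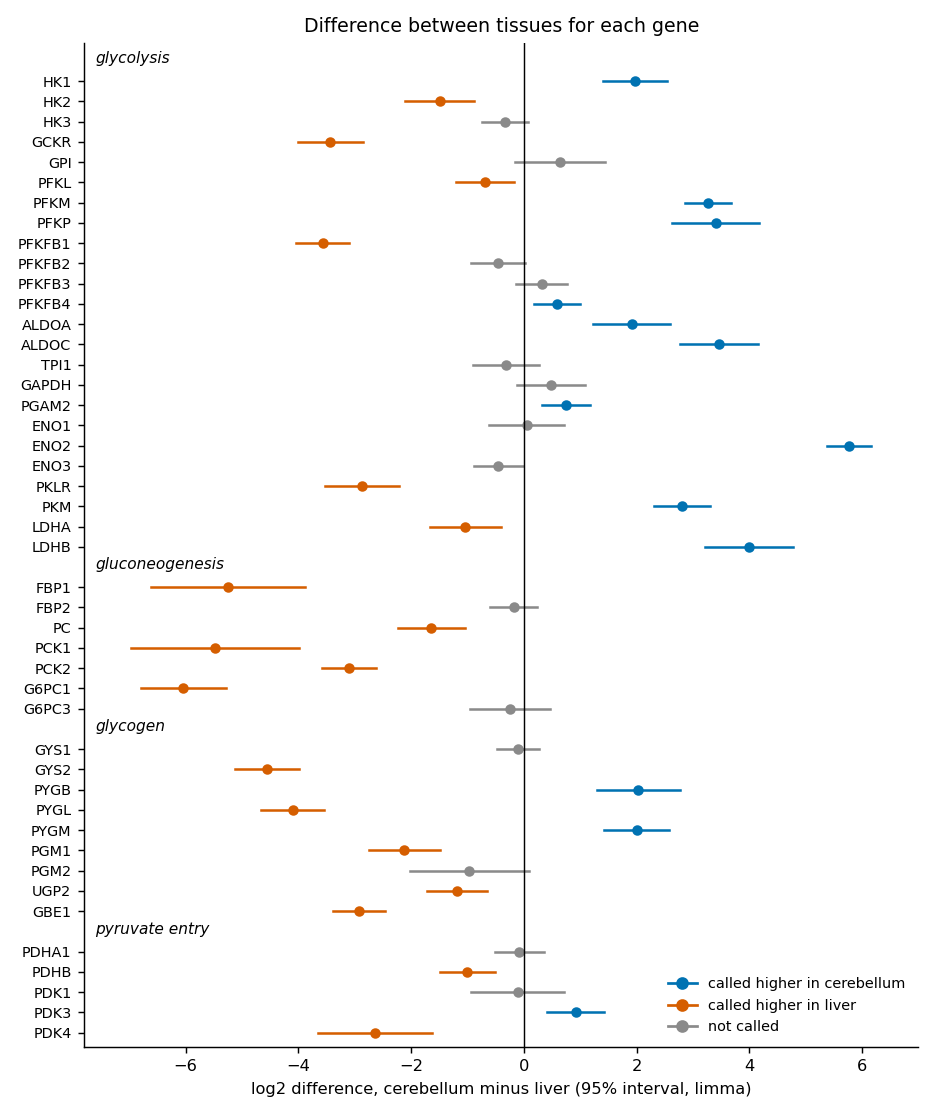
Log2 difference of each gene, cerebellum minus liver, on the scale with its pseudocount of 16.8, as a point with its 95% interval from limma. Blue marks the 13 genes called higher in cerebellum, orange the 18 called higher in liver and grey the 14 not called.

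Glucose is trapped in the cell by hexokinases, and the forms HK1 and HK2 differed between the tissues in opposite directions. HK1, the main hexokinase of brain (feature 3250278), was at 210.1, 297 and 298 in cerebellum and 40.4, 49.3 and 81.0 in liver, without overlap. On the log2 scale it differed by 1.97 (SE 0.25, limma adjusted p = 2.19e-04). HK2, the insulin-regulated form of muscle and fat (feature 2489545), read 15.3, 20.9 and 17.9 in cerebellum and 63.2, 60.6 and 135 in liver. Here the liver lay above, with a log2 difference of -1.49 (SE 0.27, limma adjusted p = 0.00183), and liver replicate 3 was the highest array. HK3, known from myeloid cells, was at 47.9 ± 8.12 and 64.3 ± 7.96 with overlapping arrays, and its difference of -0.33 was not called (95% interval -0.74 to 0.08). GCKR holds glucokinase, the hexokinase of hepatocytes, inactive in the nucleus. Its feature 2474594 was at 19.6, 13.7 and 19.7 in cerebellum and 519, 260.0 and 323 in liver, the lowest liver array far above the highest cerebellum array (log2 difference -3.43, SE 0.25, limma adjusted p = 1.00e-05).

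The 3 phosphofructokinase genes, whose enzyme commits sugar to glycolysis, also parted. PFKM, named for muscle (feature 3413344), was at 731, 906 and 989.5 in cerebellum and 73.7, 69.8 and 82.9 in liver. PFKP, named for platelets (feature 3232349), was at 730.2, 568 and 538 and 28.4, 26.5 and 88.5. Both were higher in cerebellum without overlap, by 3.27 (SE 0.18, limma adjusted p = 2.03e-06) and 3.40 (SE 0.34, limma adjusted p = 5.83e-05), and the PFKP value of liver replicate 3 stood far above those of the other livers. PFKL, the liver form (feature 3923632), was at 110.1, 202 and 139 in cerebellum and 260.0, 263 and 217 in liver. Its arrays did not overlap and it was called higher in liver at -0.69 (SE 0.23, limma adjusted p = 0.0336). The PFKL call did not survive omission of cerebellum replicate 1 (limma, adjusted p = 0.124), cerebellum replicate 3 (0.104), liver replicate 1 (0.0776) or liver replicate 2 (0.0969), nor the alignment on general genes (-0.25, adjusted p = 0.355). Over all alternatives its adjusted p ran from 0.00832 to 0.355.

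Fructose-2,6-bisphosphate is the strongest activator of phosphofructokinase, and the PFKFB enzymes both make and remove it. PFKFB1, the liver form (feature 4009811), was at 5.65, 2.37 and 4.77 in cerebellum and 272, 266 and 174 in liver. The cerebellum values are below the pseudocount, and the log2 difference was -3.57 (SE 0.21, limma adjusted p = 2.67e-06). PFKFB4 was at 41.2, 46.5 and 46.0 in cerebellum and 23.7, 17.9 and 31.2 in liver, low in both and called higher in cerebellum (0.59, SE 0.18, limma adjusted p = 0.0240). The call of PFKFB4 was lost without any of the 3 cerebellum arrays or without liver replicate 2, with adjusted p of 0.0539, 0.0570, 0.0842 and 0.0824, and its range over all alternatives was 0.00220 to 0.0842. PFKFB3, the form induced by hypoxia and growth signals, averaged 197 ± 49.3 in cerebellum and 152 ± 9.25 in liver. PFKFB2, the heart form, averaged 47.1 ± 10.8 and 71.0 ± 15.0. Neither was called, with 95% intervals of -0.14 to 0.77 and -0.94 to 0.02, although the arrays of each gene did not overlap. PFKFB3 was called higher in cerebellum after alignment on general genes (0.76, limma adjusted p = 0.0247, with 0.0247 to 0.617 over all alternatives).

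Both measured aldolases, which split fructose-1,6-bisphosphate, were higher in cerebellum, and ALDOC by more than ALDOA. ALDOC, the brain form that marks stripes of Purkinje cells (feature 3750767), was at 2646, 3611 and 3399 in cerebellum and 277, 174 and 428 in liver. ALDOA, the form of muscle and many other tissues (feature 3655920), was at 1939.8, 3399 and 2988 and 494, 727 and 988. Neither gene had overlapping arrays, and the log2 differences were 3.46 (SE 0.30, limma adjusted p = 2.70e-05) and 1.91 (SE 0.30, limma adjusted p = 8.41e-04). GPI, TPI1 and GAPDH, other enzymes of the chain, were not called. GPI, which interconverts glucose-6-phosphate and fructose-6-phosphate, was at 1061, 1799 and 1305 in cerebellum and 511, 927 and 1339.9 in liver. TPI1, which interconverts the triose phosphates, was at 252, 471 and 259 and 350.4, 434 and 411. GAPDH, the step that reduces NAD, was at 2695, 5118 and 3493 and 2125, 2673 and 3077. The arrays of the tissues overlapped for all 3 genes, with differences of 0.65, -0.32 and 0.49 and 95% intervals of -0.15 to 1.44, -0.90 to 0.26 and -0.12 to 1.09. These intervals allow differences of a size that other genes of this set show, so equal levels are not shown. GPI and GAPDH were called higher in cerebellum once arrays were aligned on general genes (1.09 and 0.93, limma adjusted p = 0.0130 and 0.00710), GPI also without liver replicate 3 (0.96, adjusted p = 0.0362), and TPI1 was called higher in liver without cerebellum replicate 2 (-0.60, adjusted p = 0.0317). Over all alternatives the adjusted p of these genes ran from 0.0130 to 0.436, from 0.00710 to 0.428 and from 0.0317 to 0.667. PGAM2, the muscle form of phosphoglycerate mutase (feature 3048363), was dim, at 18.7, 14.9 and 26.7 in cerebellum and 3.34, 4.30 and 7.49 in liver. It was called higher in cerebellum (0.75, SE 0.19, limma adjusted p = 0.00950), a call lost without cerebellum replicate 3 (adjusted p = 0.0507, with a range of 0.00140 to 0.0507 over all alternatives).

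The enolase genes held the largest difference toward cerebellum among the 45 genes. ENO2, the gamma subunit known as neuron-specific enolase (feature 3403015), was at 3233, 3493 and 3812 in cerebellum and 40.4, 49.8 and 54.3 in liver. On the log2 scale it differed by 5.77 (SE 0.17, limma adjusted p = 1.51e-07), and the 3 arrays of each tissue lay close together. ENO1, the alpha subunit found in most cells (feature 2395490), was at 1226, 2575 and 1616 in cerebellum and 1345, 1646 and 2072 in liver. Its arrays were mixed, and its difference of 0.05 has a 95% interval of -0.61 to 0.72. ENO3, the beta subunit of muscle, was dim at 24.8 ± 3.82 and 40.7 ± 9.97, and its difference of -0.46 was not called (limma, adjusted p = 0.0744), but was without liver replicate 3 (-0.59, adjusted p = 0.0298, with 0.0298 to 0.950 over all alternatives). Of 7 measured skeletal muscle markers none was called toward cerebellum and 1, ACTA1, was higher in liver. Their intensities summed to 169.6 to 192 in cerebellum, against 238 to 293 on the liver arrays. Among them CKM, the muscle creatine kinase, was at 11.2, 2.95 and 5.57 in cerebellum and 5.30, 4.54 and 4.43 in liver.

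At the last steps of glycolysis the isoenzymes of a step differed between the tissues in opposite directions. PKM, the pyruvate kinase of most tissues (feature 3631964), was at 1525, 2269 and 1919.7 in cerebellum and 204, 264 and 303 in liver. PKLR, the pyruvate kinase of liver and red cells (feature 2437363), was at 14.0, 12.6 and 20.6 and 167, 173 and 361. The log2 differences were 2.81 (SE 0.22, limma adjusted p = 1.35e-05) and -2.87 (SE 0.29, limma adjusted p = 6.12e-05), with no overlap for either gene. Red cell and neutrophil markers, 4 of 5 of which were higher in liver, summed to 123 to 161 in cerebellum, against 379 to 638 on the liver arrays, and their part in the PKLR result was not tested. The haemoglobin gene HBB, at 107, 202 and 393 in liver, was highest in liver replicate 3, as PKLR was, whereas the neutrophil markers S100A8, S100A9 and CSF3R were lowest there, at 64.9, 20.9 and 114. The red cell marker ALAS2 itself overlapped, at 26.4, 22.7 and 30.1 in cerebellum and 37.3, 28.9 and 45.3 in liver. LDHB encodes the heart type subunit of lactate dehydrogenase and LDHA the muscle type. LDHB (feature 3446868) was at 1766, 1919.7 and 1894 in cerebellum and 65.5, 74.9 and 197 in liver, a log2 difference of 4.0 (SE 0.34, limma adjusted p = 2.23e-05). LDHA (feature 3322775) was at 946, 2062 and 1534 and 2761, 3357 and 2852, higher in liver by the smaller difference of -1.04 (SE 0.28, limma adjusted p = 0.0133). The LDHA call was lost after alignment on general genes (-0.60, adjusted p = 0.0652) and without liver replicate 2 (-0.95, adjusted p = 0.0517), with a range of 0.00497 to 0.0652 over all alternatives.

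Gluconeogenesis bypasses the irreversible steps of glycolysis, and for every bypass at least 1 gene was higher in liver. Pyruvate carboxylase, PC, forms oxaloacetate from pyruvate and also refills the tricarboxylic acid cycle in brain. It was at 171, 189 and 171 in cerebellum and 720.2, 727 and 381 in liver, where replicate 3 was the lowest array (-1.64, SE 0.26, limma adjusted p = 8.71e-04). PCK1, the cytosolic PEP carboxykinase (feature 3890640), was at 21.2, 9.25 and 11.8 in cerebellum and 2646, 2354 and 376 in liver, where replicate 3 stood far below the other livers. The difference of -5.47 (SE 0.65, limma adjusted p = 1.61e-04) was -6.37 without that array. PCK2, the mitochondrial form (feature 3529508), was at 25.9, 29.4 and 30.8 and 496, 303 and 347, also higher in liver (-3.10, SE 0.21, limma adjusted p = 6.00e-06).

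FBP1, the fructose-1,6-bisphosphatase of liver (feature 3215570), was at 12.1, 120.1 and 8.62 in cerebellum and 2135, 2125 and 1189 in liver. Cerebellum replicate 2 stood far above the other cerebellum arrays, and the difference of -5.25 (SE 0.59, limma adjusted p = 1.23e-04) was -6.03 without it. FBP2, the muscle form, was near the lower end of the scale in both tissues, at 2.92, 3.65 and 4.09 and 2.26, 9.82 and 7.38, and was not called (-0.18, 95% interval -0.60 to 0.24). G6PC1, the catalytic subunit that frees glucose in the endoplasmic reticulum of hepatocytes (feature 3722248), was at 10.6, 1.68 and 8.03 in cerebellum and 1819, 2152 and 890.5 in liver. At -6.05 (SE 0.33, limma adjusted p = 1.91e-06) this was the largest difference toward liver among the 45 genes. Its relative G6PC3, which is found in most tissues, was at 55.1, 127 and 63.1 and 63.9, 118 and 111, with mixed arrays and no call (-0.25, 95% interval -0.96 to 0.46).

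In glycogen metabolism the liver forms of synthase and phosphorylase were far higher in liver, and the other forms were not. GYS2, the liver glycogen synthase (feature 3446845), was at 10.1, 8.55 and 9.01 in cerebellum and 807, 633 and 402 in liver. GYS1, the synthase of muscle and brain (feature 3867538), was at 95.2, 91.7 and 94.1 and 104, 113 and 89.8. The difference of GYS2 was -4.55 (SE 0.25, limma adjusted p = 2.00e-06), while GYS1 overlapped and was not called (-0.10, 95% interval -0.48 to 0.27). Glycogen phosphorylase releases glucose-1-phosphate from the store, and its 3 genes were all called. PYGL, the liver form (feature 3564210), was at 80.2, 83.1 and 61.4 in cerebellum and 1919.7, 1091 and 1760.4 in liver (-4.10, SE 0.24, limma adjusted p = 2.95e-06). PYGB, the brain form (feature 3880767), was at 469, 916 and 577 and 93.3, 139.8 and 212 (2.03, SE 0.32, limma adjusted p = 9.15e-04). PYGM, the muscle form that astrocytes also make (feature 3377016), was at 115, 207 and 106 and 18.6, 28.1 and 19.2 (2.0, SE 0.25, limma adjusted p = 2.45e-04). No array of either tissue crossed into the range of the other for any of the 3 genes, and cerebellum replicate 2 was the highest cerebellum array for each. Astrocyte markers also differed in that direction, with 3 of 4 higher in cerebellum and sums of 4195 to 6707 there, against 164 to 1002 on the liver arrays, highest in cerebellum replicate 2. Their part in the PYGM result was not tested. The glutamate transporter SLC1A2, at 541, 881 and 26.6 in liver, made up most of that sum in liver replicates 1 and 2 and was the marker not called.

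The genes around the synthase were also higher in liver. UGP2, which makes the UDP-glucose that the synthase uses, was at 726, 545 and 753 in cerebellum and 1594, 1189 and 1959 in liver. GBE1, the branching enzyme, was at 106, 146 and 104 and 908, 909.6 and 1212, and PGM1, which interconverts glucose-1-phosphate and glucose-6-phosphate, was at 286, 501 and 310.2 and 1949, 1779 and 1168. The arrays did not overlap for these genes, with log2 differences of -1.19, -2.92 and -2.12 (limma, adjusted p = 0.00269, 6.97e-06 and 2.77e-04). PGM2, which acts mainly on pentose phosphates, was at 142, 108 and 152 in cerebellum and 200.2, 153 and 658 in liver. Liver replicate 3 stood far above the other livers, and although the arrays did not overlap the difference of -0.97 was not called (limma, adjusted p = 0.113) and was -0.36 without that array (adjusted p = 0.195). It was called without liver replicate 2 (-1.36, adjusted p = 0.0470, with 0.0454 to 0.346 over all alternatives).

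Pyruvate dehydrogenase passes pyruvate to the tricarboxylic acid cycle, and its kinases switch it off by phosphorylation. Of the subunits of its first enzyme, PDHB was at 225, 307 and 229 in cerebellum and 428, 650.3 and 499.8 in liver (-1.0, SE 0.21, limma adjusted p = 0.00465). PDHA1, the partner subunit, was at 389, 287 and 408 and 358, 413 and 369, with overlapping arrays and no call (95% interval -0.51 to 0.35). Among the kinases PDK4, which rises on fasting (feature 3062082), was at 111, 43.6 and 31.9 in cerebellum and 697, 469 and 246 in liver. PDK4 was called toward liver at -2.64 (SE 0.44, limma adjusted p = 0.00116), with replicate 1 the highest array of each tissue. PDK3 was at 101, 96.4 and 92.0 and 31.1, 37.2 and 65.0, higher in cerebellum by 0.92 (SE 0.22, limma adjusted p = 0.00823). PDK1 was at 252, 189 and 213 and 181, 458 and 154, and liver replicate 2 alone lay above all cerebellum arrays. No call was made for PDK1 (-0.11, 95% interval -0.94 to 0.72).

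To set isoenzymes of a step against each other, the log2 ratio of 2 genes was taken on each array and its mean was compared between tissues. The ratio itself depends on the probes of both features, and only its difference between tissues is read here. A change of this ratio shows unequal differences, not that either gene stayed level. Its size also depends on the pseudocount where a gene is dim in either tissue. Of 33 listed pairs 29 had both genes measured, and for 23 (79.3%) the arrays of the tissues did not overlap, against 65.0% of all pairs of features on the array. Each of those 23 gave p = 0.1 in an exact two-sided permutation test, the smallest that 3 against 3 arrays can give, and p = 0.126 adjusted over the 29 pairs. No pair can therefore pass 0.05 in this design. Many pairs share a gene and are not independent.

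In 9 of the 29 pairs the genes were called in opposite directions. These were HK1/HK2, PFKM/PFKL, PFKP/PFKL, PFKFB1/PFKFB4, PKM/PKLR, LDHB/LDHA, PYGB/PYGL, PYGL/PYGM and PDK3/PDK4. Of single features 26.7% were called toward cerebellum and 23.9% toward liver, which are not shares of pairs. The share of all pairs called in opposite directions was not computed, so the count of 9 is not read as high or low. Several of these pairs rest on the calls of PFKL, PFKFB4 or LDHA, which were lost in some alternatives. The log2 ratio of PYGB to PYGL was 2.32, 3.22 and 2.92 on the cerebellum arrays and -4.14, -2.82 and -2.96 on the liver arrays, a difference of 6.13 and the largest of these 9. That of PKM to PKLR was 5.65, 6.28 and 5.69 and 0.26, 0.57 and -0.24, a difference of 5.68. LDHB to LDHA gave 0.89, -0.10 and 0.30 and -5.08, -5.20 and -3.75, a difference of 5.04. For both of these pairs the nearest arrays of the tissues were more than 3 log2 units apart. PFKM to PFKL and HK1 to HK2 differed by 3.95 and 3.47. The filter on dim features removed HK2 and PFKFB4, and with them HK1/HK2 and PFKFB1/PFKFB4.

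In other pairs only 1 of the genes was called, and the ratio still parted. ENO2 to ENO3 was 6.44, 6.37 and 6.42 in cerebellum and -0.24, 0.22 and 0.58 in liver, a difference of 6.23, the largest of all 29 in size. ENO1 to ENO2 differed by -5.72, G6PC1 to G6PC3 by -5.80, FBP1 to FBP2 by -5.07 and GYS1 to GYS2 by 4.44. FBP2 read below the pseudocount on every array and ENO3 was dim, so FBP1/FBP2 and ENO2/ENO3 mostly restate FBP1 and ENO2. The filter on dim features removed both of these pairs. Where both genes were called the same way, ALDOC to ALDOA was 0.44, 0.09 and 0.18 in cerebellum and -0.80, -1.96 and -1.18 in liver (1.55), and PCK1 to PCK2 -0.17, -0.83 and -0.74 and 2.38, 2.89 and 0.11 (-2.37). The PCK ratio of liver replicate 3 lay only 0.28 above the nearest cerebellum array, and without that liver the difference was -3.21. The 6 pairs whose arrays overlapped were PFKP/PFKM, PFKFB3/PFKFB4, ENO1/ENO3, PYGB/PYGM, PGM1/PGM2 and PDK1/PDK3. PYGB to PYGM was 1.88, 2.06 and 2.27 in cerebellum and 1.64, 1.80 and 2.67 in liver, and PFKP to PFKM was 0.0, -0.66 and -0.86 and -1.0, -1.0 and 0.08. Without liver replicate 3, 28 of the 29 pairs did not overlap, all but PFKFB3/PFKFB4. With fewer arrays a lack of overlap is easier to reach, and the share of all pairs of features was not computed for that setting.

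**Figure D3:**
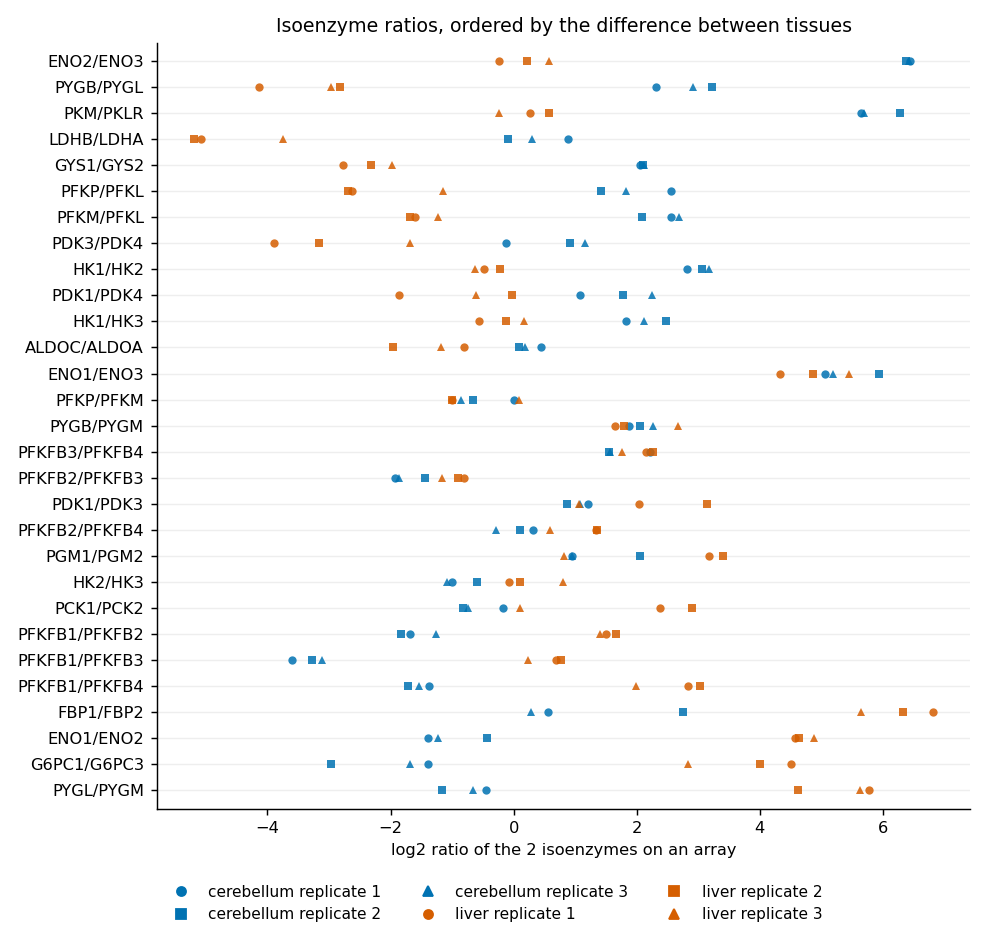
Log2 ratio of the features of 2 isoenzymes on each array, for 29 pairs ordered by the difference between tissues, with cerebellum in blue, liver in orange and the marker shape giving the replicate. The pairs at the top (ENO2/ENO3, PYGB/PYGL, PKM/PKLR) are higher in cerebellum and those at the bottom (PYGL/PYGM, G6PC1/G6PC3, ENO1/ENO2) higher in liver, while PFKP/PFKM and PYGB/PYGM are mixed.

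The liver arrays differed among themselves in this set, with replicates 1 and 3 at opposite ends. For each array the shift from the mean of the other livers was taken, and the 3 shifts of a gene balance by construction. Of the 18 genes higher in liver, replicate 3 lay below the other livers for 13 (72.2%, median shift -0.22 on the log2 scale), and of the 13 higher in cerebellum it lay above for 12 (92.3%, median 0.67). Replicate 1 lay above for 13 of the 18 (72.2%, median 0.40) and below for 12 of the 13 (92.3%, median -0.44), so these counts do not single out either array. Over all features called higher in liver 48.4% lay below in replicate 3 and 45.2% above in replicate 1, and over all called higher in cerebellum 55.9% lay above in replicate 3 and 55.5% below in replicate 1. PCK1, PDK4, G6PC1, PC and FBP1 had shifts in replicate 3 of -2.68, -1.17, -1.14, -0.90 and -0.83, and LDHB, PFKP and ALDOC of 1.30, 1.25 and 0.91. The exception among genes higher in cerebellum was PYGM at -0.15. HK2 and PKLR, which were higher in liver, lay above the other livers in replicate 3, at 0.94 and 1.01.

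Among markers of other liver cells, those of macrophages and of fibroblasts and related cells were all highest in liver replicate 3, and those of other lists went both ways. All 6 measured macrophage markers were higher in liver than in cerebellum, and their summed intensity was 6135 in liver replicate 3 against 3648 and 3854 in the other livers and 195 to 421 in cerebellum. For fibroblasts, stellate cells and smooth muscle, 4 of 4 were higher in liver, at 3518 against 1147 and 1134, and 161 to 529 in cerebellum. Endothelial markers, 4 of 5 higher in liver, were at 1233 against 986 and 1259, with 88.6 to 275 in cerebellum, and KDR of that list was lowest in liver replicate 3, at 356, 538 and 202. Bile duct markers, 1 of 4 higher in liver, were at 929 against 701 and 506, with 551 to 724 in cerebellum, KRT7 lay below 0 in the other livers, and SOX9 was at 467, 335 and 344. Hepatocyte markers were at 18287 against 23346 and 21971. Within that list FGB, CPS1 and TAT were lowest in liver replicate 3, whereas ALB, at 3746, 4040.2 and 4107, and APOB, at 3611, 3746 and 3812, were highest there. No marker of these lists was at or below 0 on all arrays, and the part of these cells in the results was not tested. Without liver replicate 3, 14 of the 45 genes were higher in cerebellum and 20 in liver, with 0 of the 31 calls lost and GPI, PFKFB2 and ENO3 added.

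**Figure D4:**
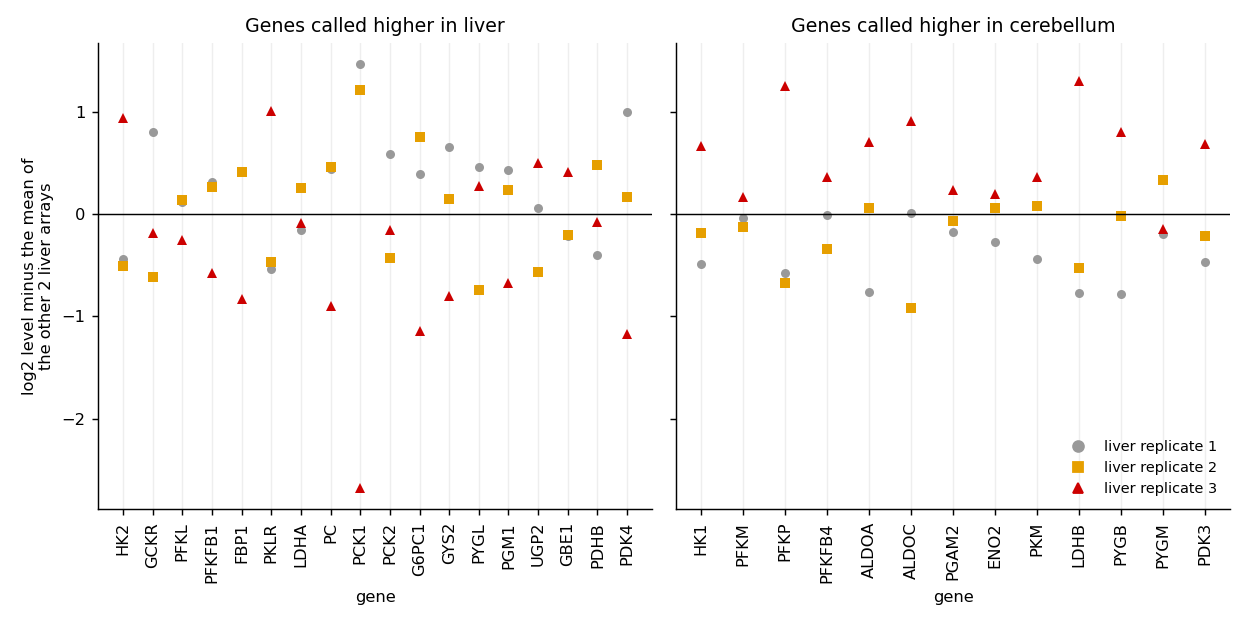
Log2 level of each called gene on a liver array minus the mean of the other 2 liver arrays, for the 18 genes called higher in liver (left) and the 13 called higher in cerebellum (right). Liver replicate 3 (red triangles) lies below 0 for 13 genes on the left, down to -2.68 for PCK1, and above 0 for 12 genes on the right, and replicate 1 lies above 0 for 13 and below 0 for 12. The 3 shifts of a gene balance each other by construction.

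Arrays of replicate 1 tended to be the lowest for the enzymes of the main glycolytic chain. For 10 of 24 glycolytic genes (41.7%) replicate 1 was the lowest array in cerebellum and also in liver, which held for 12.9% of all features. The 10 were HK1, GPI, ALDOA, TPI1, GAPDH, ENO1, ENO2, PKM, LDHA and LDHB. The same held for 2 of 7 gluconeogenic, 1 of 9 glycogen and 1 of 5 pyruvate entry genes. Liver replicate 3 was the highest liver for 16 of the 24 (66.7%, against 34.4% of all features) and for 0 of the 7 gluconeogenic genes.

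Of 82 other genes of these pathways 57 had a feature of their own, of which 10 were called toward cerebellum and 28 toward liver (limma), where 26.7% and 23.9% of all features were. They had a median log2 difference of -0.72 against 0.04 for all features. Among 4 measured genes of glucose entry, the liver glucose transporter SLC2A2 was at 13.2, 6.37 and 11.9 in cerebellum and 3023, 2325 and 2398 in liver (-6.58, limma adjusted p = 1.51e-07). The transporter of the blood-brain barrier, SLC2A1, was higher in cerebellum by 0.99 (limma, adjusted p = 0.0135), a call lost without liver replicate 2 (adjusted p = 0.0538). ADPGK, an ADP-dependent glucokinase, was called higher in liver at -0.78, but not with aligned arrays (-0.34, limma adjusted p = 0.164) or without cerebellum replicate 3 (adjusted p = 0.0610). All 3 measured genes of fructose and galactose use were higher in liver, among them GALM, which turns galactose into the form GALK1 accepts, and GALK1, which phosphorylates it, at -3.13 and -2.16. In the pentose phosphate pathway 2 of 5 were higher in liver and 1 in cerebellum, where 23.9% and 26.7% of all features were. H6PD, the first enzyme of the pathway in the endoplasmic reticulum, was at -2.38, the transketolase TKT at -1.26 and the epimerase RPE at 0.51. The RPE call was lost without any of the 3 cerebellum arrays, and without liver replicate 1 or 2 (limma, adjusted p from 0.0588 to 0.116).

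Of 14 other genes that build and control the glycogen store, 5 were higher in liver and 2 in cerebellum, together 7 of 14, where 50.6% of all features were called. PPP1R3B, the liver subunit that targets phosphatase to glycogen, was at 14.1, 12.2 and 11.7 in cerebellum and 499, 247 and 706 in liver (-3.97, limma adjusted p = 2.14e-05), and GYG2, the liver glycogenin that primes new chains, differed by -2.41. PGM2L1, a sugar bisphosphate synthase known from brain, and PHKG1, the muscle catalytic subunit of phosphorylase kinase, were higher in cerebellum by 1.74 and 1.08. PHKG1 was dim, at 43.5, 50.8 and 30.5 in cerebellum and 17.4, 6.59 and 8.77 in liver, and the filter on dim features removed it. PHKG2, the liver catalytic subunit, was not called (-0.54, limma adjusted p = 0.0610) and is named after its values were seen. In a mixed list of 6 other genes at or near glycolysis 4 were higher in liver, where 23.9% of all features were. They included LDHD, a D-lactate dehydrogenase, at -2.30 and MINPP1, an inositol polyphosphate phosphatase that also acts on bisphosphoglycerate, at -1.18. The MINPP1 call was lost with aligned arrays (-0.74, limma adjusted p = 0.0635). The count says nothing of the main enzymes of lower glycolysis, which are among the 45 genes above.

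At the mitochondrion the other genes split too. Of 6 genes of the pyruvate dehydrogenase complex and pyruvate transport, the carriers MPC1 and MPC2 were higher in liver, at -1.32 and -1.37, and the phosphatase PDP1, which reactivates the enzyme, and the subunit PDHX were higher in cerebellum by 1.24 and 0.86. The glycerol phosphate shuttle enzymes differed in opposite directions. GPD1, a cytosolic enzyme of the shuttle, was at 47.1, 40.2 and 52.5 in cerebellum and 413, 491 and 359 in liver (-2.78), whereas the mitochondrial GPD2 was at 372, 382 and 415 and 46.5, 65.9 and 78.3 (2.36, limma adjusted p = 5.41e-06 and 1.98e-05). GPD1L, a cytosolic relative of GPD1, was higher in cerebellum by 1.32, and the mitochondrial malate dehydrogenase MDH2 in liver, at -1.08. SLC37A4 carries glucose-6-phosphate to G6PC1, and it was at 130.1, 139 and 123 in cerebellum and 644, 512 and 606 in liver (-2.03). Of 11 genes that control these pathways 7 were called toward liver and 1 toward cerebellum, where 23.9% and 26.7% of all features were. Among the 7 were the carbohydrate response factor MLXIPL at -2.43 and the glucagon receptor GCGR at -2.23. PPARGC1A, also of the 7, overlapped, at 69.3, 151 and 92.2 in cerebellum and 439, 625 and 111 in liver (limma, adjusted p = 0.0458). It is named after its values were seen. The hypoxia factor HIF1A was the 1 higher in cerebellum, at 1334, 1423 and 1555 against 396, 466 and 769 (1.43, limma adjusted p = 0.00152).

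Gene order sets some of these differences side by side. In the RefSeq gene table of the chimpanzee assembly NHGRI_mPanTro3-v2.0_pri, which is not stated to be the build behind the arrays, GYS2 and LDHB are direct neighbours among protein-coding genes, and they were called in opposite directions (-4.55 and 4.0). FBP1 and FBP2 are direct neighbours as well, with FBP1 at -5.25 and FBP2, which was not called, at -0.18. TPI1 and ENO2 have 3 genes between them, and ENO2 differed by 5.77 while TPI1 was not called.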

How the data were processed

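RNA from 3 cerebellum and 3 liver samples, isolated with TRIzol and depleted of ribosomal RNA, was made into biotin-labelled sense-strand DNA for the arrays, per the labels' protocols. The submitters' processing notes name GCOS, with no version. The authors deposited 1 intensity per feature and array on a linear scale. The method of background subtraction and probe summary is not given in the sources used here. On each array 93 values lay below 0, the median was 96.3, and 0 sorted positions differed between arrays, so the deposited intensities had been quantile normalized. The number of arrays limits the precision, and probe mismatches to chimpanzee sequence were not assessed.

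Features with exactly 1 annotated symbol (12685 of 15143) were used, with the brightest kept where features shared a symbol. Values below 0 were set to 0 and log2(intensity + 16.8) was tested with limma 3.58.1 (lmFit, eBayes, two-sided) in R 4.3.3, with Benjamini-Hochberg adjustment over all features and a threshold of 0.05. The fit was also run on simulated data with 200 changed features and independent normal noise, as a check of the code and not of these results. Isoenzyme ratios were compared by exact permutation. The limma p values rest on the spread between 3 samples per tissue, drawn toward the spread typical of all features. The main fit treats all samples as independent, which the labels do not settle. All 45 genes are named, and of the other pathway genes up to 2 called genes with the largest difference in each direction per list. The genes, lists and tests were chosen with earlier results of these data known. Alternatives were a replicate block, each array left out, pseudocounts of 10.2 and 30.3, a filter on dim features, alignment on 70 general genes, a prior variance following the level, and the mean of rows of a symbol. Of 63 listed marker genes, 51 had a feature of their own and were used.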

Additional observations from a re-analysis of the deposited data

How the results depend on the processing

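The numbers of genes higher in cerebellum and in liver, 13 and 18, were 11 to 14 and 17 to 20 when 1 array was left out, and those of all features, 4045 and 3617, were 3285 to 3966 and 2828 to 3704. Aligning arrays on 70 general genes moved every difference toward cerebellum by 0.44, which gave 16 and 16 genes and 6454 and 2272 features (74.0% of called features higher in cerebellum, against 52.8%). Under that alignment the uncalled differences of HK3, FBP2, TPI1, G6PC3, GYS1, PDHA1 and PDK1 turned sign, to 0.11, 0.26, 0.12, 0.19, 0.34, 0.36 and 0.33. With 1 array left out, 3 uncalled differences also turned sign: ENO1 ranged from -0.24 (without cerebellum replicate 2) to 0.29, being -0.10 without liver replicate 1, PDHA1 from -0.17 to 0.07 (without cerebellum replicate 2), and PDK1 from -0.39 to 0.34 (without liver replicate 2). Without dim features 40 genes remained to be tested, of which 11 and 17 were called. The pseudocounts and the prior variance gave 13 and 18, with 0 calls lost and 0 gained, and the mean of rows could change no gene of the 45, since each had 1 row. Same-numbered samples have the same sex and age, and whether they share an animal is not settled: their deviations correlated at 0.112, 0.164 and -0.144. With the replicate block 13 and 19 genes were called, PGM2 being added (adjusted p = 0.0454) and, of the other pathway genes, RPE lost (adjusted p = 0.0649). The 23 isoenzyme ratios without overlap were 23 to 28 with 1 array left out, where fewer arrays make a lack of overlap easier to reach. Without dim features they were 17 of 21. Alternatives for the other pathway genes were chosen after seeing the data.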
